A study of Homo sapiens with 6 samples.

Results

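The insulin-like growth factor (IGF) axis was followed in JHH-4 cells, an epithelial-like human hepatocellular carcinoma line, after overexpression of the microRNA hsa-miR-372-3p. The genes were taken by symbol from a list of 10 names (IGFBP1, IGFBP2, IGFBP3, IGFBP4, IGFBP6, IGF1R, IGF2R, INSR, IRS1 and IRS2). Of these, 9 were measured, out of 12396 named genes in the table, and IGFBP2 was not analysed here. All 9 passed the filter on low counts, which removed 0 genes. The list was selected on pathway membership together with the measured difference between overexpressing and control cells, that of IGFBP4 above all. The fold changes of these 9 genes are therefore given below as a description, without p-values.

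RNA-seq compared 3 libraries of control cells, whose genotype is labelled WT, with 3 libraries of cells labelled hsa-miR-372-3p overexpress. Both groups were JHH-4 cells grown in the same medium, and a plasmid with the pri-miRNA supplied the microRNA; what the control cells carried, and how long expression lasted, the labels do not say. The series calls the 3 replicates of each group technical, so errors and p-values reflect library spread alone. Named genes held totals that ran from 46851245 to 47890069 in control and from 51072581 to 60070397 in overexpressing libraries. On the second principal component (10.2% of the variance), control replicate 3 was separated from both other controls. Of 14 liver epithelial markers listed, 7 were measured, and their summed level was 2351 to 2445 CPM (counts scaled to 1000000 reads of the normalised library size) in control and 4742 to 4892 CPM in overexpressing cells. KRT8 and KRT18, the keratins of simple epithelia, made up most of that sum. ALB, AFP, APOA1, APOB, TTR, HNF4A and EPCAM were not analysed here. Of 16 markers of blood, endothelial and stromal cells, 6 were measured. Their summed level was 135.9 to 157.9 CPM in control and 212.6 to 225.6 CPM in overexpressing cells. COL1A1 (means of 4.842 CPM in control and 63.95 CPM in overexpressing cells) and PDGFRB (9.081 and 20.24 CPM) were called higher. The other 4, CD68 (130.3 and 129.1 CPM), CD14, LUM and COL1A2, were not called. The part of either marker list in the results below was not tested.

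In the IGF axis, the ligands IGF1 and IGF2 bind the receptor tyrosine kinase IGF1R, and insulin binds the related receptor INSR. The activated receptors phosphorylate the adaptors IRS1 and IRS2, which recruit PI3-kinase. IGF-binding proteins (IGFBPs) hold the ligands outside the cell, and proteases such as PAPPA release them by cleaving the binding protein. The liver is a main source of circulating IGF and of IGFBP1, and IGF2R removes IGF2 by carrying it to lysosomes.

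The microRNA and its possible pairing sites are shown first, because a microRNA lowers messenger RNAs mainly through matches to its seed, bases 2 to 8. The mature sequence, from RefSeq (GRCh38.p14, chromosome 19, 53787931 to 53787953, plus strand), is printed 5′ to 3′ with the seed in capitals.
hsa-miR-372-3p: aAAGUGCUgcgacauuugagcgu

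The longest annotated 3′ UTR of each gene (GENCODE 29, GRCh38) was searched for AGCACTTA (8mer), AGCACTT (7mer-m8), GCACTTA (7mer-A1) and GCACTT (6mer). Of the 9 genes, 5 held a match of at least 6 bases, against 40.6% of 12192 genes with a 3′ UTR of at least 50 bases, and none of the 9 held the 8mer. There were 7 matches in all, 6 of them of 7 bases. Of these 6, the 5 in IGFBP4, IGF1R, IGF2R and INSR are printed with 10 bases on each side and the match in capitals, to set them beside the direction of each gene; the other, a 7mer-m8, was in IRS2.
IGFBP4 7mer-A1: actgagactgGCACTTAgcccaagagg
IGF1R first 7mer-m8: atagcaacagAGCACTTgagaaccagt
IGF1R second 7mer-m8: tttcatttttAGCACTTctcaccagag
IGF2R 7mer-m8: tttatgaggcAGCACTTtcatttttct
INSR 7mer-m8: agaacaggtcAGCACTTttttttttcc

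The printed matches lie at chromosome 17, 40456837 to 40456843, plus strand (IGFBP4); chromosome 15, 98957716 to 98957722 and 98959653 to 98959659, plus strand (IGF1R); chromosome 6, 160106687 to 160106693, plus strand (IGF2R); and chromosome 19, 7112869 to 7112875, minus strand (INSR). IGF2R also held a 6mer at 160106156 to 160106161. The 3′ UTRs of IGFBP1 (577 bases), IGFBP3 (1605), IGFBP6 (178) and IRS1 (4955) held none. The genes with matches have 3′ UTRs of 1148 (IGFBP4) to 7088 bases (IGF1R), against a median of 1398 over the genes searched, and a longer UTR holds more matches of any kind. None of the 5 genes with a match was lower in overexpressing cells: their log2 fold changes were 1.79 (IGFBP4), 1.46 (IGF1R), 1.08 (IRS2), 0.09 (INSR) and 0.08 (IGF2R). The genes without a match were not lower either, with values from 0.17 (IGFBP6) to 0.66 (IRS1). Because the list was chosen partly on the measured difference, these directions belong to the choice and say nothing about the matches. Whether matches go with direction over all genes was not tested.

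Across the axis, 6 of the 9 genes were called higher in overexpressing cells and 0 were called lower, by edgeR's quasi-likelihood test over all genes with a Benjamini-Hochberg adjusted p under 0.05. Over all 12396 genes, 26.8% were called higher and 27.7% lower. Both called higher and at least 2-fold higher were 3 of the 9 (IGFBP4, IGF1R and IRS2) and 2.82% of all genes; 0 of the 9 and 3.2% of all genes were called lower and at least 2-fold lower. The 6 genes were IGFBP1, IGFBP3, IGFBP4, IGF1R, IRS1 and IRS2, and IGFBP6, IGF2R and INSR did not pass. The median log2 fold change was 0.49 over the 9 genes and 0.0012 over all genes. Because the list was chosen with this contrast known, these counts describe the choice and support nothing further. In bulk libraries such as these, more cells expressing a gene and more RNA per cell cannot be told apart.

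IGFBP4 (ENSG00000141753, chromosome 17, 40443461 to 40457731, plus strand), which binds both IGFs and releases them when PAPPA cuts it, differed most. Its normalised counts were 124.1, 121.7 and 118.9 CPM in the controls (replicates 1 to 3, in that order here and below) and 430.6, 426.2 and 405.1 CPM in the overexpressing libraries. The groups lay far apart, with every overexpressing library more than 3 times above every control. The means were 121.6 ± 2.62 and 420.6 ± 13.7 CPM (SD, n = 3), a 3.46-fold difference and a log2 fold change of 1.79 ± 0.04 (SE; 95% confidence interval 1.70 to 1.88). That value ranked 92 of 12396 genes from the most increased. Behind it stood 5671 to 5827 counts in the controls and 21544 to 25822 in the overexpressing libraries.

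IGFBP1 (ENSG00000146678, chromosome 7, 45888357 to 45893668, plus strand) is made by hepatocytes and is repressed by insulin. It stood at 198.1, 186.6 and 207.3 CPM in control and at 264.2, 261.9 and 262.6 CPM in overexpressing cells. The groups did not overlap, and the 3 overexpressing libraries lay closer together than the 3 controls. The log2 fold change was 0.41 ± 0.04 (SE), or 1.33-fold.

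IGFBP3 (ENSG00000146674, chromosome 7, 45912245 to 45921874, minus strand), the main carrier of IGFs in blood, lies 18.6 kb from IGFBP1. It had 69.62, 63.16 and 65.39 CPM in control and 87.92, 95.41 and 94.81 CPM in overexpressing cells. Again the groups did not overlap, and the difference was close in size to that of its neighbour: a log2 fold change of 0.49 ± 0.05 (SE), or 1.40-fold.

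IGFBP6 (ENSG00000167779, chromosome 12, 53097436 to 53102345, plus strand), which prefers IGF2 to IGF1, did not pass. Its CPM values were 19.1, 18.48 and 23.46 in control and 23, 24.73 and 20.79 in overexpressing cells. The groups overlapped because control replicate 3 lay above overexpression replicates 1 and 3. The log2 fold change was 0.17 ± 0.10 (SE), with an interval of −0.06 to 0.39. Without control replicate 3, the library that stood apart on the second component, it was 0.28 and the gene was called higher, making 7 of 9.

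**Figure D1:**
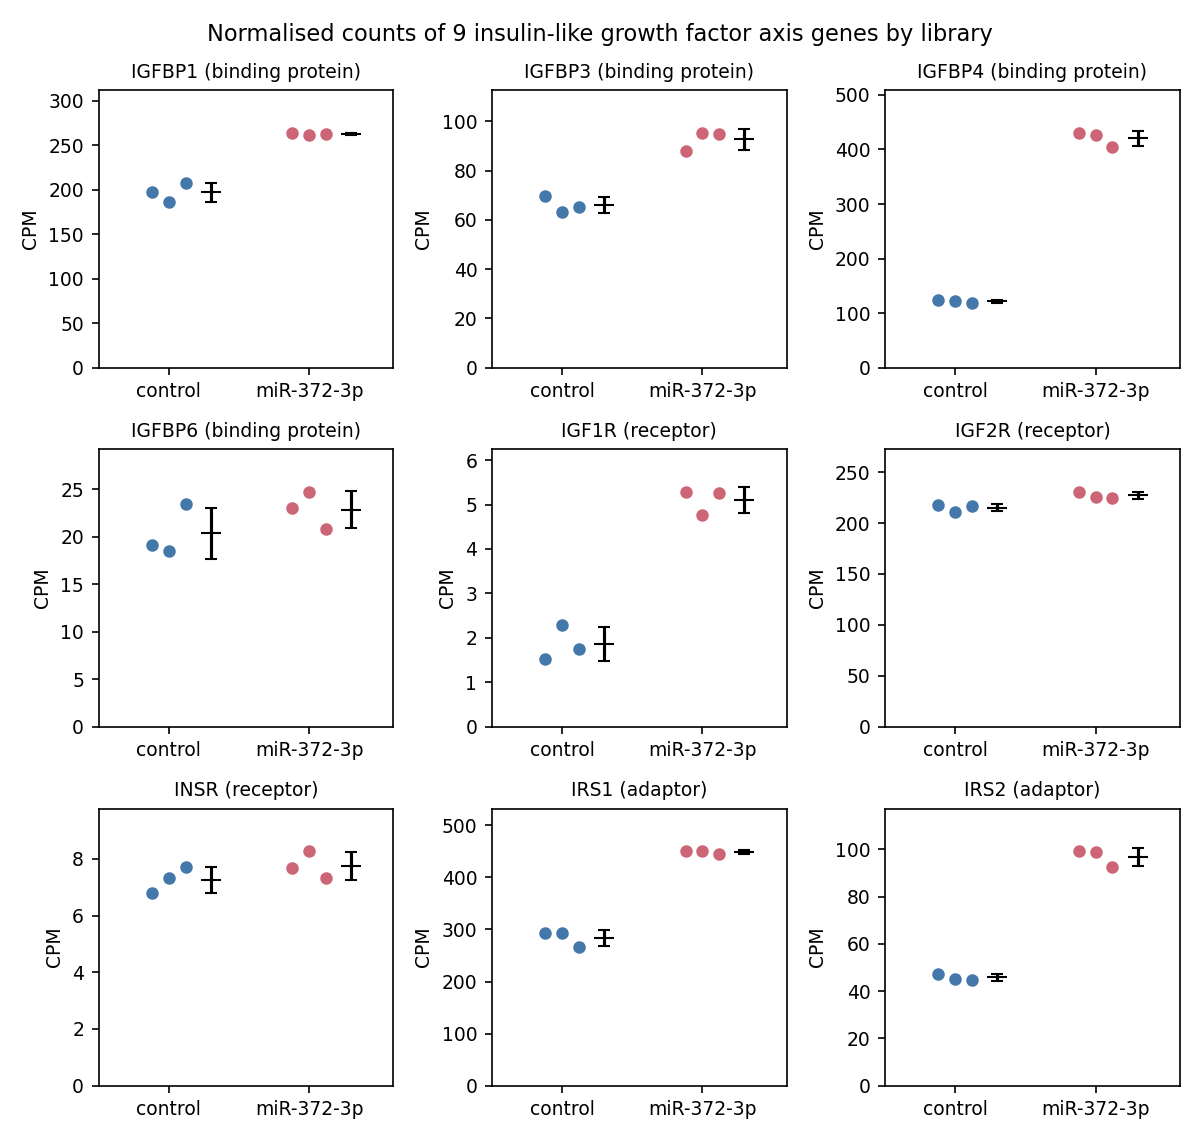
Normalised counts (CPM, linear axes from 0) of the 9 genes in each library, 3 control (blue) and 3 overexpressing (red); black marks are the group mean with its SD. The groups lie apart for IGFBP1, IGFBP3, IGFBP4, IGF1R, IGF2R, IRS1 and IRS2 and overlap for IGFBP6 and INSR.

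Of the receptors, only IGF1R was called. IGF1R (ENSG00000140443, chromosome 15, 98648539 to 98964530, plus strand), the signalling receptor for both IGFs, had few reads: 72, 107 and 85 counts in the controls against 317, 241 and 295 with overexpression. These correspond to 1.533, 2.296 and 1.751 CPM in control and 5.287, 4.768 and 5.264 CPM in overexpressing cells. The lowest overexpressing library was above the highest control, but the controls varied widely, with a coefficient of variation of 21.1% against 2.14% for IGFBP4. The log2 fold change was 1.46 ± 0.18 (SE; 95% confidence interval 1.06 to 1.86), or 2.74-fold, and IGF1R had the widest standard error of the 9 genes.

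INSR (ENSG00000171105, chromosome 19, 7112255 to 7294034, minus strand), the insulin receptor, stood at 6.794, 7.319 and 7.703 CPM in control and 7.688, 8.289 and 7.316 CPM in overexpressing cells. The groups overlapped, and the log2 fold change of 0.09 ± 0.10 (SE) had an interval of −0.14 to 0.33. IGF2R (ENSG00000197081, chromosome 6, 159969099 to 160113507, plus strand) had 217.8, 211.1 and 216.4 CPM in control and 230.7, 225.9 and 224.5 CPM in overexpressing cells. Its groups did not overlap on this scale, yet the difference was small, with a log2 fold change of 0.08 ± 0.03 (SE), and it was not called. On the authors' FPKM scale (fragments scaled to gene length and library depth) the IGF2R groups did overlap, at 15.95 to 18.6 in control and 16.39 to 21.03 in overexpressing cells. Its FPKM was not a fixed multiple of its CPM. Control replicates 1 and 3 had 217.8 and 216.4 CPM but 18.6 and 15.95 FPKM. In all, groups did not overlap on the CPM scale for 7 of the 9 genes, all with overexpressing cells higher, where 62.2% of all genes were without overlap in either direction and 30.7% with overexpressing cells higher.

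Both adaptors were higher. IRS1 (ENSG00000169047, chromosome 2, 226731317 to 226799759, minus strand), which links the insulin and IGF1 receptors to PI3-kinase, had 293.2, 293.4 and 266.3 CPM in control and 450.1, 451.1 and 444.6 CPM in overexpressing cells. Each overexpressing library lay well above each control, and the log2 fold change was 0.66 ± 0.04 (SE), or 1.58-fold. IRS2 (ENSG00000185950, chromosome 13, 109752698 to 109786568, minus strand), its paralog and the other main adaptor of the liver, had 47.33, 45.18 and 44.82 CPM in control and 99.39, 98.76 and 92.35 CPM in overexpressing cells. That is a log2 fold change of 1.08 ± 0.05 (SE), or 2.12-fold, with no overlap between the groups. The authors' deposited table gives log2 fold changes of 1.79 for IGFBP4, 1.46 for IGF1R, 1.08 for IRS2 and 0.66 for IRS1.

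**Figure D2:**
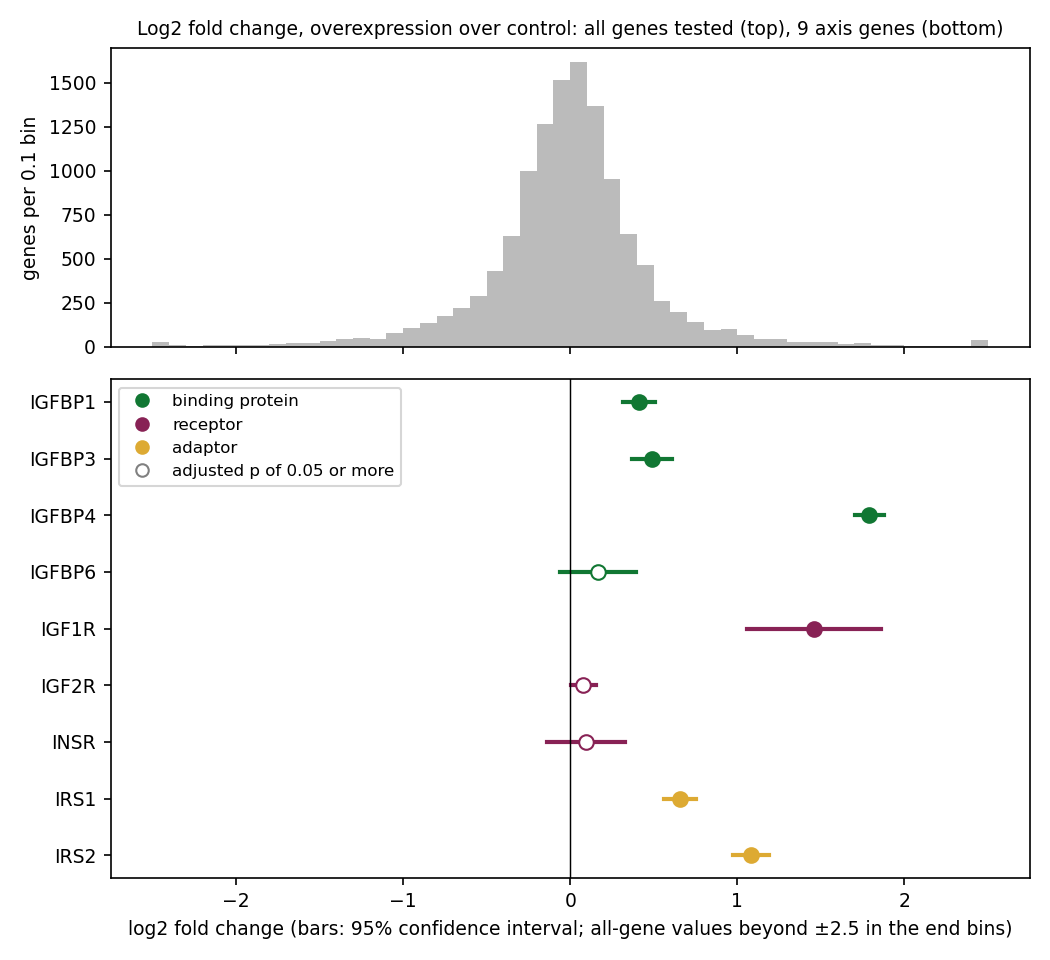
Log2 fold change of overexpression over control, as a histogram over all genes tested (top) and for the 9 axis genes with 95% confidence intervals (bottom); filled points were called and open points were not. All 9 points lie to the right of 0, from 0.08 for IGF2R to 1.79 for IGFBP4.

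Levels of different genes were compared only per gene length, in the authors' FPKM. In control cells the order of mean FPKM was IGFBP1 (106.1 ± 6.82, SD, n = 3), IGFBP4 (49.07 ± 0.869), IRS1 (26.0 ± 1.17), IGFBP3 (25.98 ± 1.55), IGF2R (16.93 ± 1.46), IGFBP6 (15.72 ± 2.33), IRS2 (4.994 ± 0.149), INSR (0.8131 ± 0.0712) and IGF1R (0.1337 ± 0.0261). Neighbours in that order whose libraries overlapped were IRS1 with IGFBP3 and IGF2R with IGFBP6. The adaptor genes thus stood far above both signalling receptors in FPKM, and IGF1R was the lowest in every control library. In overexpressing cells IGFBP4 came first (170.4 ± 6.3, SD, n = 3), ahead of IGFBP1 (141.9 ± 2.13), and the other 7 kept their places. IGF1R was still last at 0.3966 ± 0.0483, below INSR at 0.8928 ± 0.0113.

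The 4 measured IGFBP genes of the list together gave 198.7, 186.2 and 205.6 FPKM in control and 374.2, 366.7 and 359.3 FPKM in overexpressing cells. IGFBP4 made up 25.2, 26.1 and 23.6% of that sum in control and 47.2, 46.5 and 45.6% in overexpressing cells. IGFBP1 made up 53.6, 53.2 and 54.8% in control and 38.5, 38.2 and 39.4% in overexpressing cells, although its own FPKM was higher there. IGFBP6 made up 7.96 ± 0.85% (SD, n = 3) and 4.83 ± 0.35% (SD, n = 3). Among these 4 genes, the largest share was therefore that of IGFBP1 in all 3 controls and that of IGFBP4 in all 3 overexpressing libraries. IGFBP7, which was measured but is not on the list, is not in the sum, nor are IGFBP2 and IGFBP5.

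**Figure D3:**
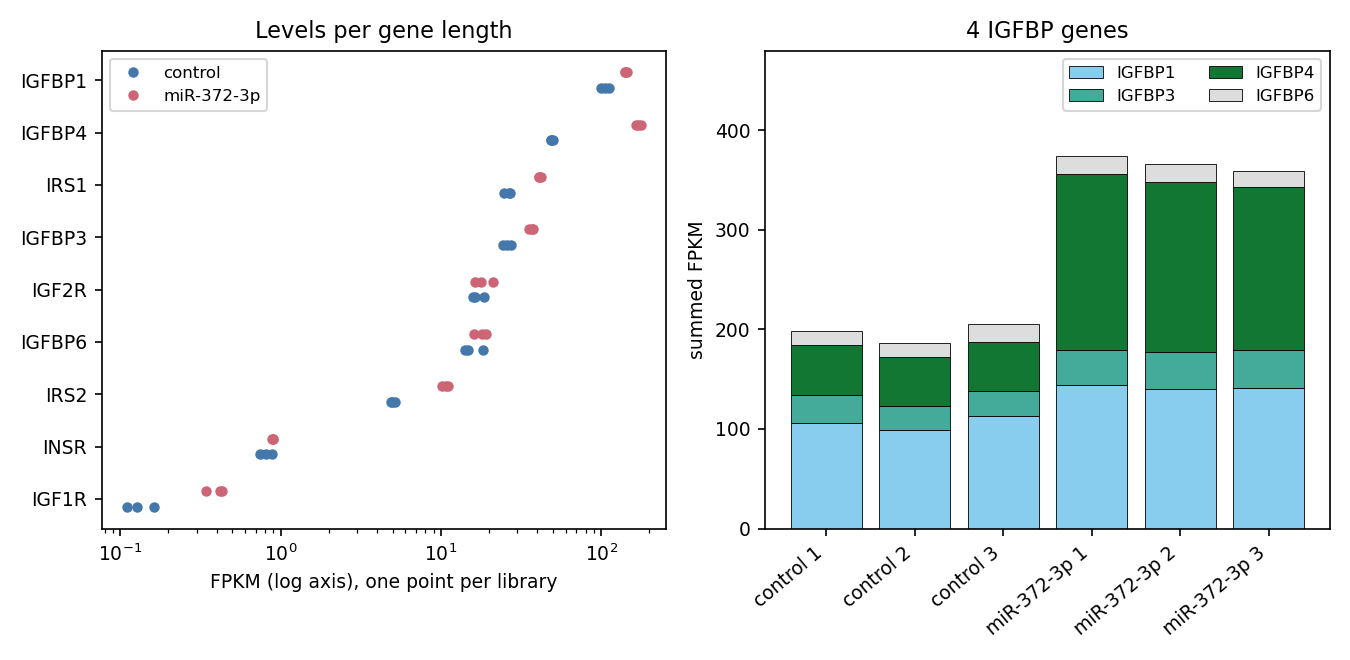
Left, FPKM (log axis) of the 9 genes in each library, control in blue and overexpressing in red; right, FPKM of the 4 IGFBP genes stacked by library. The stacked total is 186.2 to 205.6 in control and 359.3 to 374.2 in overexpressing libraries, with IGFBP4 (dark green) the part that differs most.

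The rest of the pathway was read from lists that hold none of these 9 genes, by the same edgeR fit with Benjamini-Hochberg adjustment over all genes, of which 54.5% were called in either direction. Among the ligands and other family members, 5 of 13 listed genes were measured, 4 rose and 0 fell (median log2 fold change 0.43). IGF1, IGF2, INS, IGFBP5 and IRS4 were not analysed here. The risers included the 3 IGF2BP genes, which code for RNA-binding proteins named for IGF2 messenger RNA. IGF2BP1 rose most: its mean was 1.137 ± 0.344 CPM (SD, n = 3) in control and 4.013 ± 0.458 CPM (SD, n = 3) with overexpression, a log2 fold change of 1.82 (edgeR adjusted p = 0.000132). IGF2BP3 had a log2 fold change of 0.96 and IGF2BP2 of 0.43. IGFBP7, a matrix-associated relative that binds IGFs weakly, rose by 0.12 on the log2 scale (edgeR adjusted p = 0.0399), but its adjusted p was 0.0607 to 0.164 in 5 of the 6 fits that left out 1 library, all except that without control replicate 3.

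Of 16 measured genes for IGFBP proteases and their inhibitors, 6 rose and 4 fell (median 0.11). PAPPA, the metalloproteinase that cleaves IGFBP4, rose from 25.8 to 32.96 CPM, with a log2 fold change of 0.35 ± 0.08 (SE; edgeR adjusted p = 0.00476). Its secreted inhibitors rose as well: STC2 from 33.21 to 63.98 CPM (log2 fold change 0.95 ± 0.05) and STC1 from 63.28 to 77.78 CPM (0.30 ± 0.06). PAPPA2, a relative of PAPPA, had a log2 fold change of −0.12 ± 0.22 (SE) and did not pass. The plasminogen activator gene PLAT (0.99) rose, while the matrix metalloproteinase genes MMP7 (−1.22) and MMP1 (−1.02) fell. PAPPA, STC1 and PAPPA2 were singled out after their values were seen, for their role beside IGFBP4.

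Inhibitors and phosphatases that act on the receptors or on IRS proteins went both ways: 11 of 24 rose and 6 fell (median 0.08). SOCS1, which can target IRS proteins for degradation, rose from 1.011 to 4.947 CPM (log2 fold change 2.29 ± 0.23, SE). The ubiquitin ligase genes CBLB (0.97) and NEDD4L (0.76) rose too. ENPP1, which inhibits the insulin receptor (−0.76), and the adaptor gene GRB7 (−0.74) fell.

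Downstream, 8 of 30 measured genes of the PI3K, AKT and mTOR list rose and 11 fell (median −0.01). The regulatory subunits of PI3-kinase, which bind phosphorylated IRS proteins, split: PIK3R1 rose (log2 fold change 0.63), while PIK3R3 (−0.93) and PIK3R2 (−0.57) fell, as did the catalytic subunit gene PIK3CA (−0.62). Leaving out 1 library moved the value of PIK3R2 between −0.71 and −0.35. The translation repressor EIF4EBP2 rose (0.63). Of 22 genes of the SHC, GRB2 and MAP kinase branch, 10 rose and 4 fell (median 0.14), led by the adaptors SHC1 (0.66), CRKL (0.42) and GAB2 (0.40); the RAS exchange factors SOS1 (−0.49) and SOS2 (−0.34) fell.

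FOXO factors are held out of the nucleus by insulin and IGF signalling and drive IGFBP1, IRS2 and INSR in liver. Of 20 measured FOXO factors and targets outside these 9 genes, 5 rose and 6 fell (median 0.05). GADD45A (0.90), a stress response gene, and BCL2L11 (0.66), a promoter of apoptosis, rose. The sestrin gene SESN3 (−1.08), TXNIP (−0.97) and SOD2 (−0.64) fell. In the mannose 6-phosphate pathway, by which IGF2R sorts lysosomal enzymes, 4 of 17 rose and 6 fell (median −0.07). The largest were the retromer subunit VPS35 (−0.92), the endocytic receptor LRP1 (0.84), the sorting adaptor GGA2 (0.77), the AP-1 subunit AP1M1 (−0.65) and the sorting receptor SORT1 (0.51).

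**Figure D4:**
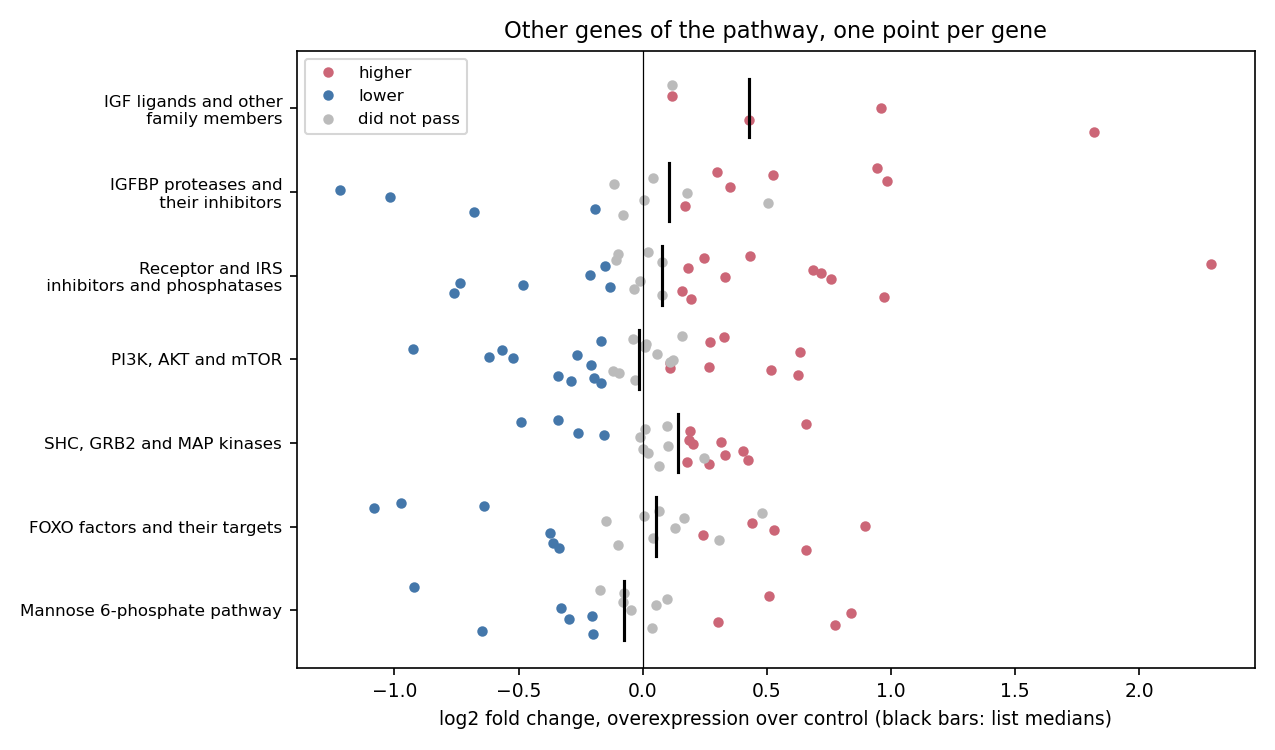
Log2 fold change of overexpression over control for each measured gene of 7 lists around the axis (red, called higher; blue, called lower; grey, did not pass), with list medians as black bars. The first list has its median at 0.43, and the other medians lie between −0.07 and 0.14.

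The 5 genes whose centred log2 CPM over the 6 libraries lay nearest to those of IGFBP4, by Euclidean distance, were FHL1 (distance 0.151), KIF17 (0.152), NMRK2 (0.167), CRIP2 (0.169) and ARID3A (0.174). Their log2 fold changes were 1.78, 1.78, 1.70, 1.80 and 1.70. The distance mainly compares the size of the difference between the groups. They lie on chromosomes X, 1, 19, 14 and 19, none on that of IGFBP4.

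Position was also not part of the choice of genes. Among 48 measured genes that were 1 of the 3 nearest on either side of an axis gene, 14 rose and 17 fell (64.6% called, median log2 fold change 0.02). Over all genes, 26.8% were called higher, 27.7% lower and 54.5% in either direction. The nearest measured gene can be distant, as with CHD2, 5620 kb from IGF1R. Beside IGFBP4, TOP2A, 25.5 kb away, fell by 0.37 on the log2 scale, and SMARCE1, 167 kb away on the other side, had a log2 fold change of 0.03 ± 0.05 (SE). The 3 neighbours called with at least a 2-fold difference all fell. They were ADGRE1, 172 kb from INSR (−2.48), COL4A3, 365 kb from IRS1 (−1.22), and SLC22A3, 235 kb from IGF2R (−1.22). Over all genes, 2.82% were called higher and 3.2% lower with at least a 2-fold difference. COL4A3 was low in both groups, with means of 1.358 CPM in control and 0.5789 CPM in overexpressing cells. TOP2A and SMARCE1 were named for their place next to IGFBP4.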

How the data were processed

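The authors' deposited table gives, per the file headers, raw read counts and FPKM for 6 libraries, with a p-value and a log2 fold change of the authors' comparison. The submitters' processing notes name HISAT2 2.0.4, StringTie 2.2.1, DESeq2 1.38.3 and the build GRCh38; for annotation and read counting, no tool or release is given in the sources used here. FPKM, which the authors scaled to length and depth, was not tested; it served to compare levels between genes and to describe the axis genes by group. The deposited p-value was not used.

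Groups and replicates came from the titles. The 1610 assembled loci with no gene name (2.64 to 3.63% of counts) were left out of library sizes and tests, leaving 12396 genes of 14006 rows; no row has under 208 counts in all. The counts went into edgeR 4.0.16 (R 4.3.3): a quasi-likelihood F-test without a block, on TMM-normalised sizes, Benjamini-Hochberg adjustment, threshold 0.05; CPM use TMM-scaled sizes. Within groups, library pairs gave a chi-square of 6.86 to 38.6 per degree of freedom, above counting noise. The kit (NEBNext Ultra RNA) does not mark strand, so overlapping genes are uncertain. Positions and 3′ UTRs are from GENCODE 29, the microRNA and promoters from RefSeq (GRCh38.p14; 8 of 9 genes matched). Protein sequences were not used here.

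The 10 genes, the pathway lists and the tests were chosen with earlier results of these data known. Named genes were the axis genes; up to 5 called genes per list with the largest change and a mean of at least 2 CPM; neighbours called at 2-fold or more; and the 5 profiles nearest to IGFBP4. Some items that these rules name are not reported here. Others named are said to be chosen after their values were seen. Alternatives were DESeq2 1.42.0 and its size factors, filters, the assembled loci, a replicate block and leaving out each library.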

Additional observations from a re-analysis of the deposited data

How the results depend on the processing

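Under all 12 alternatives the 6 axis genes called higher stayed at 6, except for 7 without control replicate 3, which added IGFBP6, and 0 were called lower. The log2 fold change of IGFBP4 ran from 1.77 to 1.82, that of IGF1R from 1.33 to 1.64 and that of IRS2 from 1.06 to 1.11. Over the whole table the calls ran from 2800 to 3546 higher and from 2961 to 3553 lower, with DESeq2 giving 3359 and 3465. With the replicate block they were 3381 and 3428, and the same number of axis genes (6) was called. No label says that the replicate numbers pair the libraries. Same-numbered deviations correlated at −0.136, −0.0517 and 0.103, and not every library correlated best with its own number. Deviations from the mean of 3 replicates are tied to each other, so these correlations cannot settle whether the libraries are paired. Of the 58 genes picked by the naming rules, only IGFBP6 and IGFBP7 changed their call under any alternative, and none changed direction. KIF17 and COL4A3 had values under 11 of the 12 alternatives. Genes named outside those rules, such as PAPPA, PAPPA2, STC1, TOP2A and SMARCE1, were not followed over the alternatives. Depth limits the precision of IGF1R, which had the fewest reads of the 9 axis genes, at 72 to 107 counts per control library.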

Other observations

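Promoters of 8 of the 9 genes (RefSeq, GRCh38.p14; 250 bases before to 50 after the start) were searched on both strands for CAAAACA and GTAAACA, which resemble sites of forkhead factors such as the FOXO proteins. CAAAACA occurred in 4.92% and GTAAACA in 3.42% of 35116 promoters. Among the 8, the promoter of IRS2 held CAAAACA in reverse, 40 bases before the start (chromosome 13, 109786617 to 109786623), and that of IGFBP6 held GTAAACA 186 bases before the start (chromosome 12, 53097481 to 53097487). The starts are those of RefSeq; that of IGFBP6 lies downstream of the GENCODE start, so its match falls inside the gene as GENCODE draws it. The matches, printed in the direction of the gene with the match in capitals, show that 1 lies in a gene called higher and 1 in a gene that did not pass.
IRS2: gagtcacatgtTGTTTTGctcttcttagt
IGFBP6: caatttgggaaGTAAACAgaaactggaaa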
